A study of Mus musculus with 10 samples.

Results

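Mitochondria in heart muscle cells burn pyruvate, branched-chain amino acids and ketone bodies, and 36 genes encode the enzymes, carriers and regulators described here. They were chosen by name from the gene symbols of a read count table and are 36 of its 56832 genes. By role they fall into 5 arms: 6 genes of pyruvate entry, 10 of the tricarboxylic acid (TCA) cycle, 4 of the malate-aspartate shuttle, 13 of branched-chain amino acid breakdown and 3 of ketone oxidation. The assignment of genes to arms was made here. Dld, whose protein serves several complexes, is counted with pyruvate entry, and Mdh2, which also belongs to the TCA cycle, with the shuttle.

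The cells came from 5 Sprr1a-GFP mice, whose library titles all carry the tag Hetz. Each mouse had a myocardial infarction at 12 weeks of age, and heart muscle cells were freed 5 days later by perfusing the heart with enzyme on a Langendorff apparatus. Flow sorting divided them into GFP+ cells, called border zone cells by the labels, and GFP− cells, called remote zone cells, and each mouse gave 1 library of each kind. All 10 libraries are therefore from infarcted hearts, and the sequence that drives the reporter is not given in the sources used here. Titles of GFP+ libraries join cells negative and positive for DAPI, a dye that enters cells with leaky membranes, whereas titles of GFP− libraries name the negative cells, so this gate and the group cannot be told apart. Animal identifiers fall into 2 series with differently worded titles, 17C (17C1 and 17C2) and 21A (21A4, 21A5 and 21A7). The design asks how cells next to the infarct differ from cells far from it.

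Pyruvate made from glucose crosses the inner mitochondrial membrane through a carrier of paired subunits, and the pyruvate dehydrogenase complex turns it into acetyl-CoA. Leucine, isoleucine and valine lose their amino group and are then committed to oxidation by the branched-chain ketoacid dehydrogenase complex, which a kinase switches off and a phosphatase switches on. Ketone bodies made by the liver are taken up by the heart and split into acetyl-CoA. All these routes meet in the TCA cycle, whose dehydrogenases hand electrons to the respiratory chain, and the malate-aspartate shuttle carries electrons made in the cytosol into the mitochondrion. The adult heart runs these routes at a high rate.

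Libraries held 12244373 to 38879965 counts in total, and 3417972 to 16918067 outside the mitochondrially encoded genes, which took 9.2% (GFP−, 21A7) to 91.2% (GFP+, 21A7) of a library. The 36 genes together had 13820 to 219144 counts. The cardiomyocyte markers (Myh6, Tnnt2, Tnni3, Actc1, Ryr2 and Mb) held 1.2% to 8.24% of the counts outside mitochondrial genes. A list of 29 markers of fibroblasts, macrophages, endothelial and mural cells held 0.0701% to 0.0943% in the 4 17C libraries, 2.37%, 3.78% and 4.79% in the GFP− libraries of 21A4, 21A5 and 21A7, and 0.568%, 0.473% and 1.61% in their GFP+ libraries. At most 1 of the 29 markers was at 0 in any library. Mouse 21A7 stood apart: its GFP− library had the smallest share of 18 sarcomere genes (1.78%, against up to 12.0%), and all 18 outlying values of the members came from its libraries. In these bulk samples, fewer cells of a type and less RNA per cell cannot be told apart. The part of DAPI-positive cells, of other cell types and of mitochondrial RNA in the results was not tested beyond the values given with them.

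**Figure D1:**
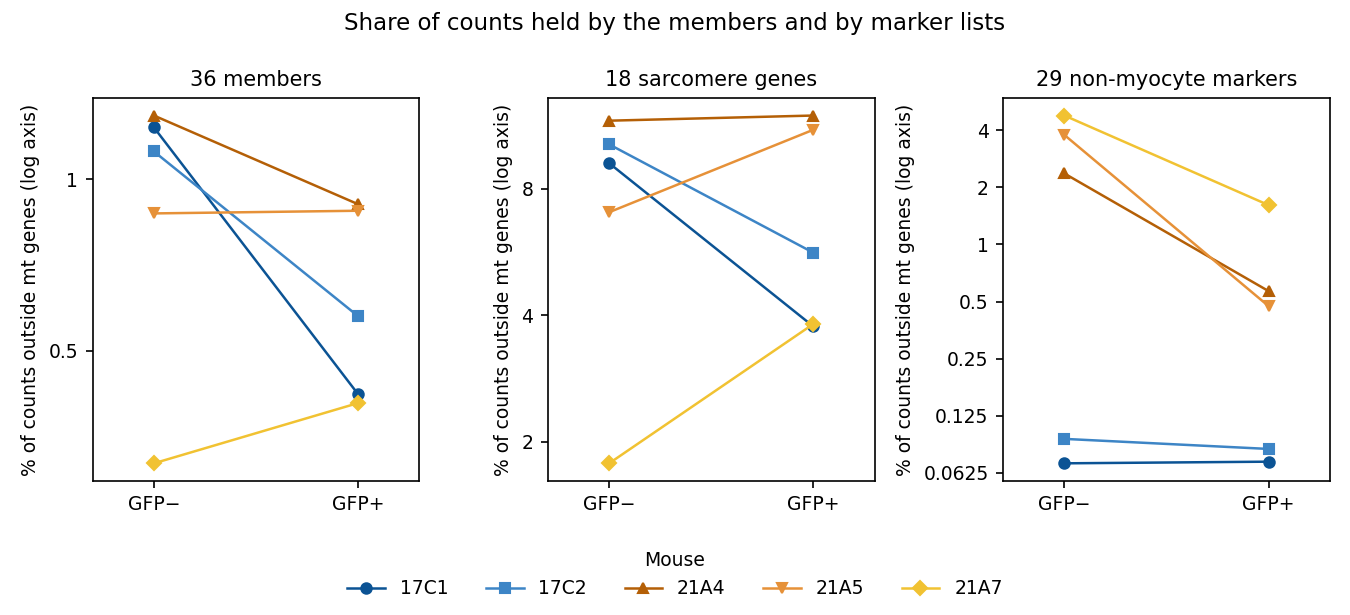
Share of the counts outside mitochondrially encoded genes (%, log axis) held by the 36 members, by 18 sarcomere genes and by 29 non-myocyte markers, with 1 line joining the GFP− and GFP+ library of each mouse. The members' share was lower in GFP+ cells of 17C1, 17C2 and 21A4, nearly level in 21A5 and higher in 21A7, and the non-myocyte share was lower in the GFP+ library of all 3 21A mice.

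Across all 5 mice, no gene of these routes passed the test. All 36 genes passed the filter on low counts. In the fit that pairs the libraries of a mouse (edgeR's quasi-likelihood test with Benjamini-Hochberg adjustment over 12115 genes), 0 of 36 passed an adjusted p of 0.05, against 0.858% of all genes tested. At an unadjusted p under 0.05 there were 3 (Acat1, Bckdha and Idh2, all lower in GFP+ cells), which is 8.33% of the members against 15.3% of all genes. DESeq2 with the same terms called 2 of them, Acat1 and Idh2, both lower, against 7.31% of all genes. Limma voom called Acat1 alone (1 of 36, against 9.6% of all genes). Without 21A7 the pooled log2 fold changes of Idh2 and Acat1 were −1.50 and −1.02. With no mouse term, 0 passed and 3 had an unadjusted p under 0.05 (8.33%, against 8.18% of all genes). The members' median log2 fold change was −0.10 relative to that of all genes, and it was 0.12 without mouse 17C1. With the non-myocyte score of each library (the mean log2 CPM of the 29 markers) as a covariate it was −0.56, with 35 of 36 members below 0, and 0 of all genes were called.

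By their medians on the main (TMM) scale the identifier series had opposite signs, although the members' median in mouse 21A4 alone was −0.04. In the 17C mice 35 of 36 members were below 0 and 17 fell past the threshold of the same test (47.2%, against 7.52% of all genes lower). Those 17 are Mpc1, Mpc2 and Pdhb of pyruvate entry, Cs, Idh2, Idh3b, Idh3g, Ogdh and Dlst of the TCA cycle, Mdh1, Mdh2 and Got2 of the shuttle, Bckdha, Bckdhb, Ppm1k and Ivd of branched-chain breakdown, and Acat1. In the 21A mice 30 of 36 were above 0 and 2 rose, Mpc1 and Bdh1 (5.56%, against 2.67% of all genes higher). Without 21A7 those 2 passed again, and without 21A4 or 21A5 none did. The count of 17 was not recomputed with a mouse left out, which leaves 1 pair. With so few pairs, standard errors and p within a series rest largely on variability that edgeR shares across genes. They do not measure the spread between these mice alone: Bckdhb, at −1.95 ± 0.44 in the 17C fit, differed by −2.89 in 17C1 and −1.11 in 17C2.

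Member medians ranked the mice in the same order as sarcomere gene medians did. In the order 17C1, 17C2, 21A4, 21A5 and 21A7, the median log2 CPM difference of GFP+ minus GFP− was −1.03, −0.71, −0.04, 0.41 and 0.81 for the 36 members. Sarcomere genes had −1.25, −0.72, 0.48, 1.17 and 1.69 in the same order. Over all genes the median lay between −0.02 and 0 in every mouse. Both lists were thus below the general level in the GFP+ cells of the 17C mice and, in 21A5 and 21A7, above it. The member median minus the sarcomere median was 0.21, 0.0059, −0.52, −0.75 and −0.88, so members rose less in those 21A mice. Members' counts per sarcomere count were 0.134, 0.110, 0.111, 0.124 and 0.178 in GFP− libraries. They were 0.111, 0.102, 0.0756, 0.0796 and 0.106 in GFP+ libraries, lower in each mouse. Relative to the median fold change of all genes, the members' median was −0.82 in the fit of the 17C mice and 0.43 in that of the 21A mice. Scaling to the sarcomere genes in place of TMM moved all genes (their median to 0.95 in the 17C fit and −1.10 in the 21A fit) and left the members at −0.82 and 0.43 relative to them. On library totals, where the median of all genes was 0.14 and −2.08, the members were at −0.82 and 0.41 relative to it. A change of scale shifts all genes of a library alike, so these relative values could hardly change and are no check on the result. The signs of single genes, their counts and the calls depend on the scale chosen. On library totals 35 of 36 members were below 0 in the 17C mice and 36 of 36 in the 21A mice. Scaled to the sarcomere genes, 17 were below 0 in the 17C mice and 34 in the 21A mice. Signs and calls given below are on the TMM scale.

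**Figure D2:**
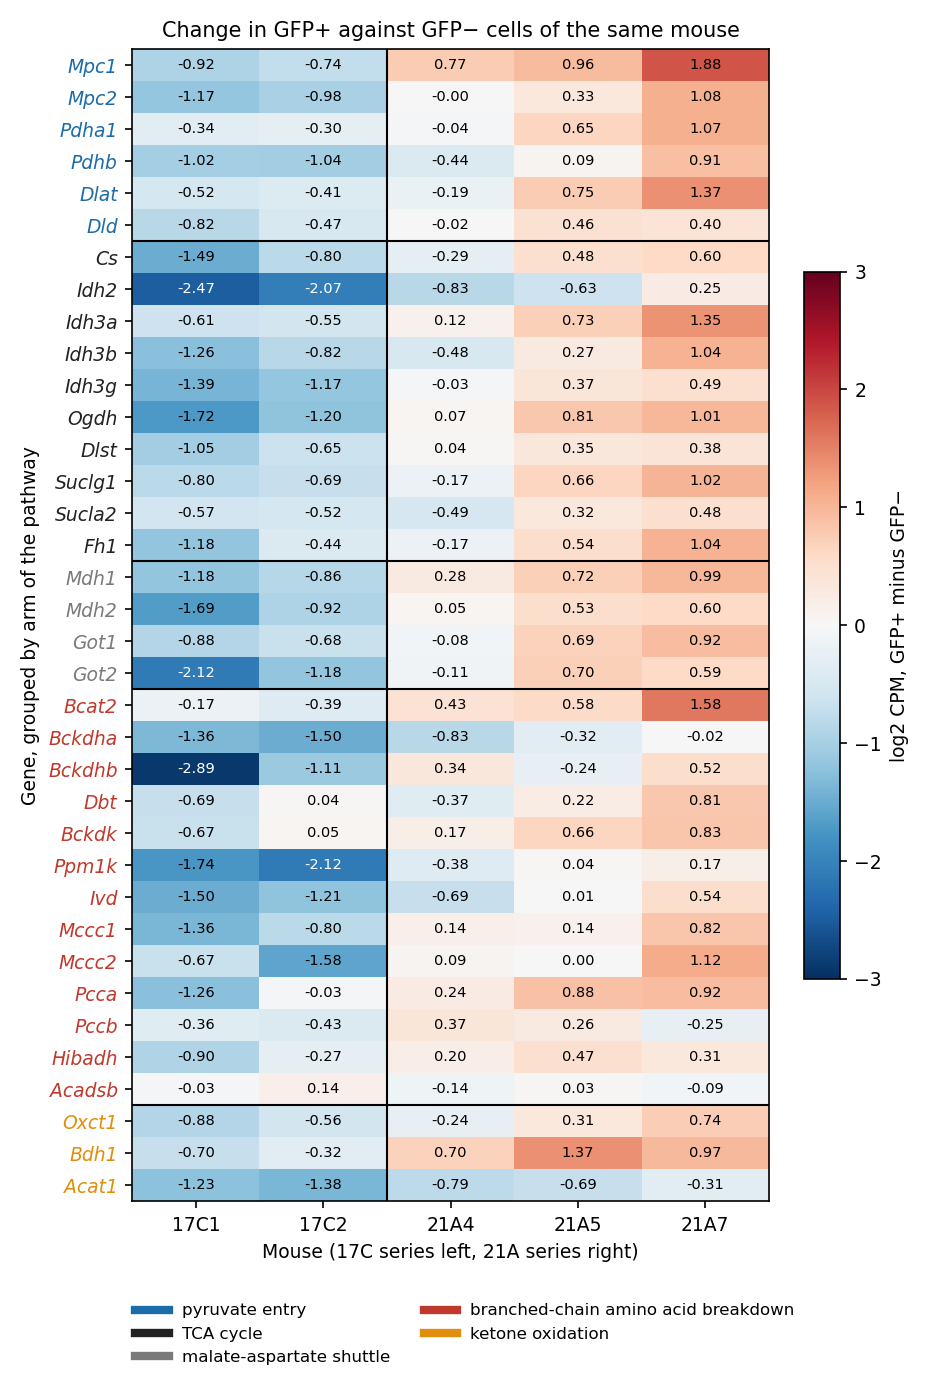
Log2 CPM of GFP+ minus GFP− cells for each of the 36 genes (rows, grouped by arm) in each mouse (columns), red where GFP+ cells were higher and blue where lower. The columns of 17C1 and 17C2 are almost wholly blue and that of 21A7 mostly red, whereas Bckdha and Acat1 are below 0 in all 5 columns.

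In pyruvate entry, Mpc1 passed the test in both series with opposite signs. This gene encodes a subunit of the mitochondrial pyruvate carrier. Its GFP− level was 86.5, 82, 19.3, 18.2 and 4.25 CPM (reads scaled to a fixed library total corrected by TMM factors, mice in the order given), and its GFP+ level 45.8, 49.1, 33.1, 35.5 and 15.9 CPM. GFP+ cells were thus lower in both 17C mice and higher in the 3 21A mice, and the groups overlapped. Mpc1 fell in the 17C mice (log2 fold change −0.82 ± 0.26, standard error, edgeR adjusted p = 0.0418) and rose in the 21A mice (1.22 ± 0.27, adjusted p = 0.0301). The pooled value was 0.39 ± 0.43 (adjusted p = 0.727).

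Of the pyruvate dehydrogenase subunits among the 36 members, Pdhb passed in the 17C mice and none in the 21A mice. Pdhx, a further subunit outside the 36, passed in the 17C mice as well (−1.14, edgeR adjusted p = 0.00708). It had 0.34 in the 21A mice (adjusted p = 0.387) and is named here after its values were seen. Pdha1, the catalytic alpha subunit whose phosphorylation turns the complex off, had 262, 241, 212, 139.7 and 45 CPM in GFP− and 208, 196, 206, 219 and 94.3 CPM in GFP+ cells. Outside 21A7 its GFP+ level lay between 196 and 219 CPM. The log2 fold change was 0.20 ± 0.29 in edgeR's paired fit (adjusted p = 0.8). Pdhb, its beta partner, had 148, 143, 77.2, 62.2 and 13.3 CPM in GFP− and 73, 69.9, 57, 66.2 and 25 CPM in GFP+ cells. Pdhb fell in the 17C mice (−1.02 ± 0.26, edgeR adjusted p = 0.0103), where both GFP+ values were under both GFP− values, and had 0.20 in the 21A mice. Dlat and Dld, the acetyl-transferring and lipoamide-oxidizing subunits, had pooled values of 0.19 and −0.09, and Mpc2, the other carrier subunit, −0.15.

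In the TCA cycle the smallest p belonged to Idh2, the mitochondrial NADP-dependent isocitrate dehydrogenase that supplies NADPH. It had 531, 461, 364, 202 and 79.6 CPM in GFP− cells and 96.1, 109.9, 205, 131 and 94.9 CPM in GFP+ cells. GFP− levels ranged widely whereas GFP+ levels stayed between 94.9 and 205 CPM, and GFP+ was lower in 4 of 5 mice, 21A7 being the exception. Its paired log2 fold change was −1.14 ± 0.43 (edgeR adjusted p = 0.258, DESeq2 adjusted p = 0.0452). It fell most of all members in the 17C mice (−2.26 ± 0.28, edgeR adjusted p = 5.37e-06), with −0.38 ± 0.29 in the 21A mice (adjusted p = 0.462).

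The NAD-dependent isocitrate dehydrogenase, the form that feeds the respiratory chain, is built from the products of Idh3a, Idh3b and Idh3g. Idh3g had 120.2, 106, 63, 46.2 and 18.4 CPM in GFP− and 45.7, 47.2, 61.6, 59.5 and 25.8 CPM in GFP+ cells. It fell in the 17C mice (−1.27 ± 0.27, edgeR adjusted p = 0.00196), and its pooled value was −0.34 ± 0.34. Idh3a, the catalytic subunit, was at 0.20 pooled, −0.57 for 17C and 0.75 for 21A. Neither of its series values passed the threshold. Idh3b fell in the 17C mice (−1.03 ± 0.27, adjusted p = 0.011).

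Citrate synthase, the entry step of the cycle, had 369, 306, 253, 168 and 57.4 CPM in GFP− and 132, 175, 206, 234 and 87.3 CPM in GFP+ cells. Cs fell in the 17C mice (−1.14 ± 0.27, edgeR adjusted p = 0.00682), and its pooled value was −0.30 ± 0.36 (adjusted p = 0.754). Ogdh, the oxoglutarate dehydrogenase subunit, also fell in the 17C mice (−1.45 ± 0.27, adjusted p = 0.00066) and had 0.65 ± 0.31 in the 21A mice. Dlst, the succinyl-transferring partner of Ogdh, had −0.18 pooled, Sucla2 of succinate-CoA ligase −0.16 and Fh1, fumarate hydratase, −0.04. Suclg1, the other ligase subunit listed, had −0.73 for 17C and 0.52 for 21A.

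**Figure D3:**
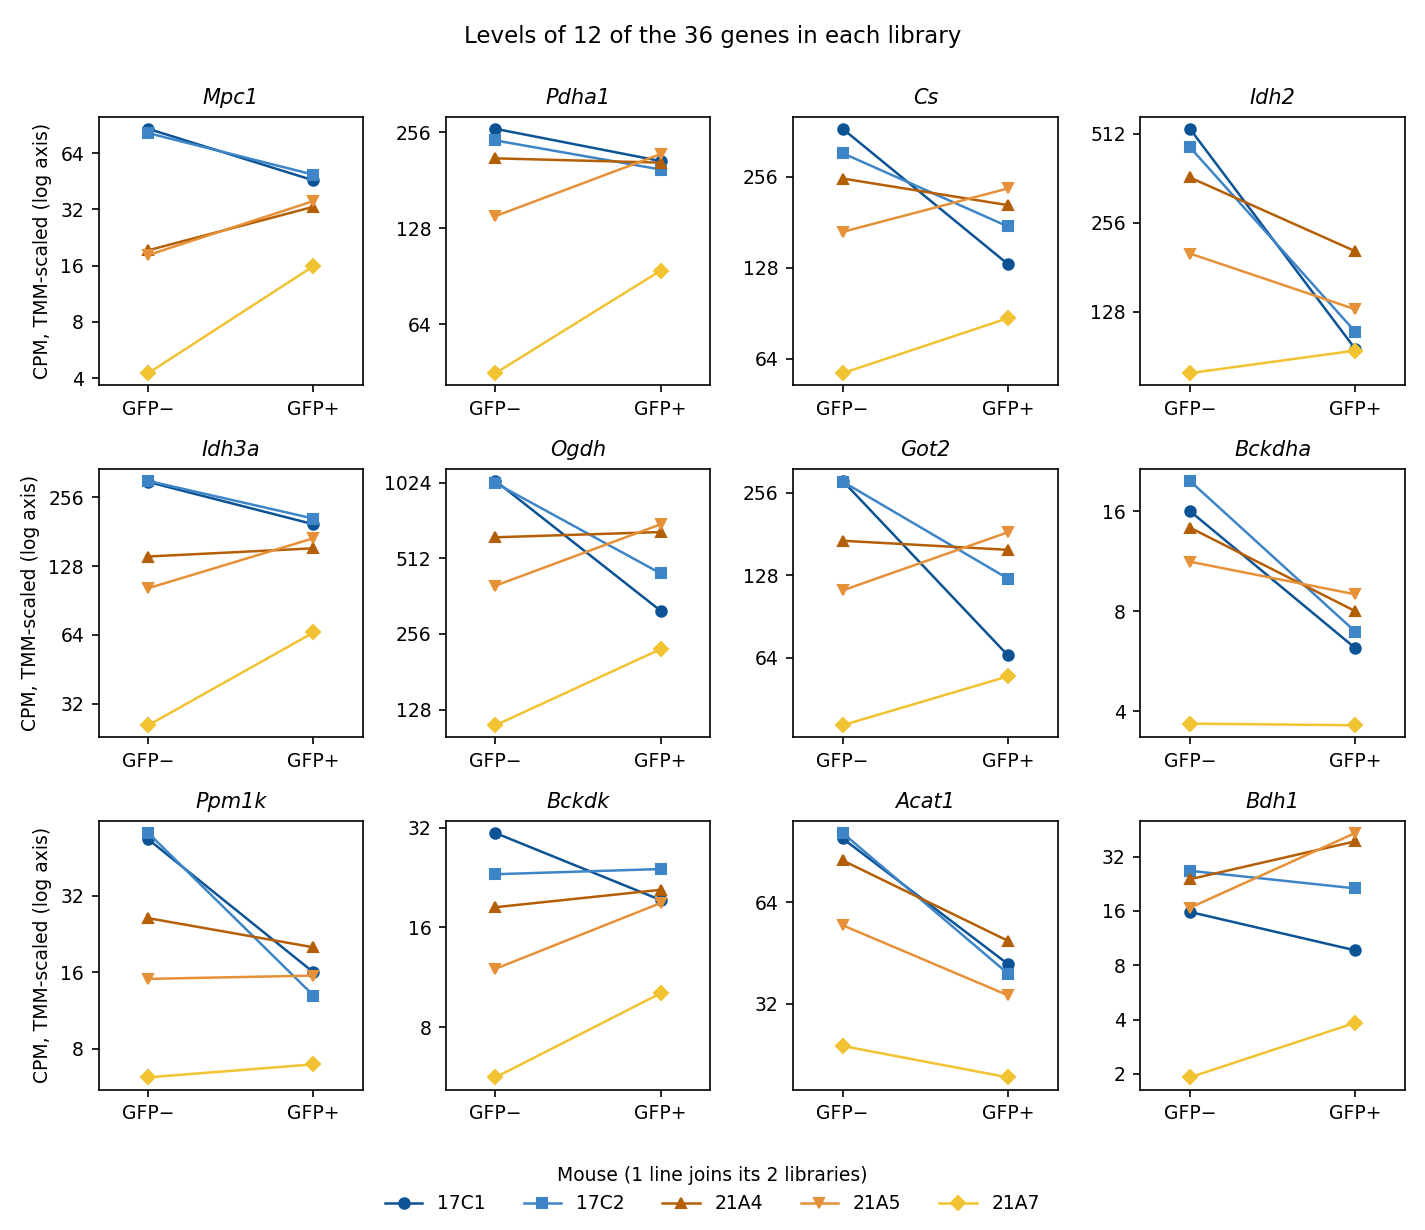
Level of 12 of the 36 genes in each library (CPM on TMM-scaled library sizes, log axis), with 1 line joining the GFP− and GFP+ library of each mouse. In most panels the 17C lines slope down, the 21A5 and 21A7 lines slope up, and the GFP+ points lie closer together than the GFP− points; the Acat1 lines slope down in all 5 mice.

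In the shuttle 3 of 4 genes fell in the 17C mice and none passed in the 21A mice. Got2, the mitochondrial aspartate aminotransferase, had 283, 281, 171, 113 and 36.2 CPM in GFP− and 65.1, 124, 158, 183 and 54.6 CPM in GFP+ cells. Outside 21A7 its lowest level was that of the GFP+ cells of 17C1, and Got2 fell in the 17C mice (−1.63 ± 0.29, edgeR adjusted p = 0.000405). Mdh2, the mitochondrial malate dehydrogenase, had 692, 569.9, 352, 262 and 101 CPM in GFP− and 215, 300.2, 365, 378 and 153 CPM in GFP+ cells. Mdh2 fell as well (−1.30 ± 0.28, adjusted p = 0.00269), as did Mdh1, its cytosolic counterpart (−1.01 ± 0.26, adjusted p = 0.0119). Got1, the cytosolic aminotransferase, had 266, 257, 164, 119.9 and 27.1 CPM in GFP− and 145, 161, 154, 193 and 51.4 CPM in GFP+ cells, and a pooled log2 fold change of −0.01 ± 0.33 (edgeR adjusted p = 0.994). Pooled, the 4 shuttle genes lay between −0.40 and −0.01.

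In branched-chain breakdown the smallest p belonged to the committed step. Bckdha encodes the catalytic alpha subunit of the branched-chain ketoacid dehydrogenase. Its level was 16, 19.8, 14.3, 11.3 and 3.67 CPM in GFP− and 6.2, 6.95, 8.01, 9.0 and 3.63 CPM in GFP+ cells. GFP+ was lower in 5 of 5 mice, by 0.02 on the log2 scale in 21A7, and the lowest library had 34 counts. The paired log2 fold change was −0.81 ± 0.30 (edgeR adjusted p = 0.246), and Bckdha fell in the 17C mice (−1.43 ± 0.42, adjusted p = 0.0261). Its partner Bckdhb, the beta subunit, fell there too (−1.95 ± 0.44, adjusted p = 0.00403) and had 0.21 ± 0.33 in the 21A mice. Bckdhb stood at 27.2, 25, 9.48, 8.05 and 1.54 CPM in GFP− and 3.59, 11.5, 12.1, 6.8 and 2.24 CPM in GFP+ cells. Its counts were low as well, with 33 in the GFP+ library of 17C1 and 21 in that of 21A7. Dbt, the core subunit of the same complex, had −0.32 for 17C and 0.23 for 21A.

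Ppm1k, the phosphatase that switches the complex on, had 53.5, 56.6, 26.1, 15.1 and 6.16 CPM in GFP− and 16, 13, 20.1, 15.5 and 6.94 CPM in GFP+ cells. Its GFP− levels in the 17C mice were the 2 highest of the 10, and the GFP+ levels lay between 6.94 and 20.1 CPM. Ppm1k fell in the 17C mice (−1.92 ± 0.29, edgeR adjusted p = 8.19e-05), with −0.04 ± 0.24 in the 21A mice and −0.80 ± 0.38 pooled (adjusted p = 0.373). Bckdk, the kinase that opposes it, had a pooled value of 0.21, and Bcat2, the mitochondrial aminotransferase of the first step, 0.40. Neither kinase nor aminotransferase passed the threshold in a series.

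The upstream sequences of a few members are shown because, relative to the median difference of the 36 members, Idh2 and Ppm1k were low in 5 of 5 mice while Bckdk, the kinase opposed to Ppm1k, was high. They are the 120 bases before the annotated start, from RefSeq on build GRCm38.p6, an earlier build than that of the counts, written 5′ to 3′ in the direction of the gene, with matches to the GC box GGGCGG or its reverse complement CCGCCC in capitals. Idh2 is at chr7:80115351-80115470 (minus strand), Ppm1k at chr6:57535488-57535607 (minus strand) and Bckdk at chr7:127903953-127904072 (plus strand).
Idh2: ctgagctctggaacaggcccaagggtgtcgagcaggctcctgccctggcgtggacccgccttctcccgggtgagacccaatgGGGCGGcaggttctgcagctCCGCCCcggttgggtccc
Ppm1k: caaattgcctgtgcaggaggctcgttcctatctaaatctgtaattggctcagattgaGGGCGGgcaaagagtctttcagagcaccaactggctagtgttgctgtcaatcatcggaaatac
Bckdk: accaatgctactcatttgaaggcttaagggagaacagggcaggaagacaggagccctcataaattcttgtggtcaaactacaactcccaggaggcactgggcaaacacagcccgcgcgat

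The Idh2 and Ppm1k windows hold the GC box and the Bckdk window does not, but Bckdha and Ivd, which were low relative to the members in 5 of 5 mice as well, have none in the searched bases. Promoters were matched for 33 of 36 members (not for Acat1, Dbt and Idh3a) and searched on both strands over 250 bases before the start. GGGCGG was found in 18 of 33 members (54.5%, against 35.4% of 27025 genes), the estrogen-related receptor half-site AAGGTCA in 1 (3.03%, against 4.70%), the ETS motif CCGGAAG in 2 (6.06%, against 7.83%) and the NRF1 core GCATGCGC in 2 (6.06%, against 2.56%). A match describes these letters and is not evidence of binding.

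Further down the leucine route, Ivd (isovaleryl-CoA dehydrogenase) had 40.7, 40.5, 65.9, 39 and 9.6 CPM in GFP− and 14.4, 17.5, 40.8, 39.2 and 14 CPM in GFP+ cells. It fell in the 17C mice (−1.35 ± 0.31, edgeR adjusted p = 0.0043), had −0.04 ± 0.26 in the 21A mice and −0.57 ± 0.32 pooled. The other 6 genes of the arm, the carboxylase subunits Mccc1, Mccc2, Pcca and Pccb with Hibadh and Acadsb, had pooled values between −0.21 and 0.16. Acadsb, a short branched-chain acyl-CoA dehydrogenase, had 24.2, 22, 27.3, 26.3 and 12 CPM in GFP− and 23.6, 24.3, 24.8, 26.8 and 11.3 CPM in GFP+ cells, and its log2 difference lay between −0.14 and 0.14 in every mouse.

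Ketone oxidation held the member with the smallest p. Acat1, the mitochondrial thiolase of the last ketone step, had 98.6, 102, 84.9, 54.6 and 24 CPM in GFP− and 42, 39.3, 49.2, 33.9 and 19.4 CPM in GFP+ cells. GFP+ was lower in 5 of 5 mice, and the groups overlapped only through the GFP− library of 21A7. Its paired log2 fold change was −0.88 ± 0.23 (edgeR adjusted p = 0.139, DESeq2 adjusted p = 0.00951), with −1.30 ± 0.27 in the 17C mice (edgeR adjusted p = 0.00173) and −0.58 ± 0.21 in the 21A mice (adjusted p = 0.135). Acat1 and Bckdha were the 2 members of 36 with the same direction in 5 of 5 mice, which is 5.56% against 17.2% of all genes.

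Bdh1, the dehydrogenase of the first ketone step, had 15.8, 26.7, 24, 16.7 and 1.92 CPM in GFP− and 9.68, 21.3, 38.9, 43.2 and 3.84 CPM in GFP+ cells. It rose in the 21A mice (1.05 ± 0.24, edgeR adjusted p = 0.0336), in all 3 of them, whereas the 17C mice had −0.50 ± 0.36 (adjusted p = 0.431). Oxct1, the CoA transferase and rate-setting enzyme of ketone use, had 307, 246, 242, 186 and 52.1 CPM in GFP− and 167, 167, 206, 231 and 87.2 CPM in GFP+ cells. Its pooled value was −0.13 ± 0.30 (adjusted p = 0.886).

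The difference between series was itself tested, as an interaction of group and series in edgeR with the mouse as a block. The GFP contrast was higher in the 21A mice for 10 of 36 members past an adjusted p of 0.05 (27.8%, against 3.57% of all genes higher in 21A). Those 10 are Mpc1, Mpc2, Idh2, Idh3g, Ogdh, Mdh1, Mdh2, Got2, Ppm1k and Bdh1. Ppm1k had the smallest p, with a difference of 1.87 ± 0.35 on the log2 scale (adjusted p = 0.0237), followed by Mpc1 (2.02 ± 0.39, adjusted p = 0.0251) and Got2 (2.04 ± 0.43, adjusted p = 0.03). Idh2 differed by 1.86 ± 0.43 although it was below 0 in both series. Acadsb was the 1 member whose contrast was lower in the 21A mice (−0.12).

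The members' median series difference was 1.29 (median of all genes 0.01). It was 1.57 with the non-myocyte score as a covariate, 1.17 without 17C1, 1.16 without 21A5 and 1.00 without 21A7, with 35 of 36 members above 0 each time. The count of 10 became 0 with the score, 0 without 17C1, 0 without 21A5 and 6 without 21A7. Scaling to the sarcomere genes moved the median of all genes to −1.98 and that of the members to −0.70. Library totals moved them to −2.15 and −0.92. Relative to all genes the members were then at 1.28 and 1.22, values that a change of scale can hardly move. The non-myocyte share of GFP− libraries was at most 0.0943% for 17C and at least 2.37% for 21A. The mitochondrially encoded share differed between series with the same sign split as well. From GFP− to GFP+ it went from 61.9% to 49.3% in 17C1 and from 58.1% to 47.7% in 17C2, but from 35.7% to 73.1% in 21A4, 26.5% to 35.7% in 21A5 and 9.2% to 91.2% in 21A7. With the mitochondrially encoded genes left out, 21 members were called in the 17C mice, 2 in the 21A mice and 10 for the difference between them.

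**Figure D4:**
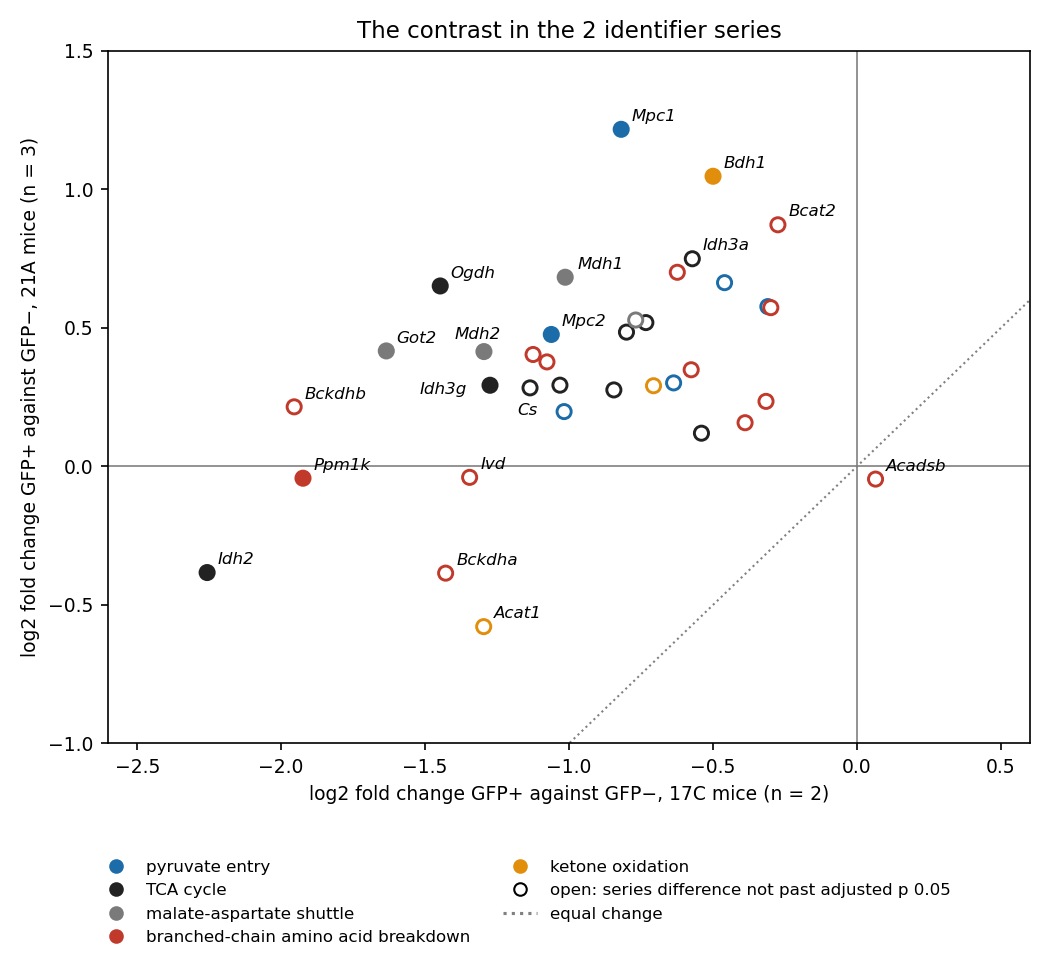
Log2 fold change of GFP+ against GFP− cells in the 17C mice (x axis, n = 2) and in the 21A mice (y axis, n = 3), 1 point per gene, coloured by arm and filled where the series difference passed an adjusted p of 0.05. All points but that of Acadsb lie above the dotted line of equal change, and Acat1, Bckdha and Idh2 are the lowest 3 points on the y axis.

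Spread between mice differed between the cell groups. The SD of log2 CPM across mice was wider in GFP− than in GFP+ cells for 34 of 36 members (94.4%, against 50.4% of all genes), with a median of 1.11 against 0.643. Over all genes the medians were 0.725 and 0.718. The members share the same libraries and moved together, so the 34 are not separate observations. Their median log2 CPM was 6.90, 6.82, 6.23, 5.75 and 3.75 in GFP− and 5.98, 6.02, 5.89, 5.97 and 4.58 in GFP+ libraries (mice in the order given). The GFP− libraries also differed widely in non-myocyte share (0.0701% to 4.79%), and its part in the spread was not tested. GFP− and GFP+ ranges were apart for 0 of 36 members, against 2.45% of all genes.

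Comparing members with each other within a library takes the scaling out. Relative to the median difference of the 36 members in the same mouse, 9 genes lay on the same side in 5 of 5 mice (25.0%, against 10.8% of all genes). That reference moved with the members, from −1.03 in 17C1 to 0.81 in 21A7, while the median of all genes did not. Members can therefore keep to the same side of it more easily than other genes, and these shares are not a like comparison. Below it were Idh2 (mean −1.03 ± 0.37 on the log2 scale, SD, n = 5), Acat1 (−0.77 ± 0.38), Ppm1k (−0.69 ± 0.43), Bckdha (−0.69 ± 0.21) and Ivd (−0.46 ± 0.14). Above it were Bcat2 (0.52 ± 0.29), Bdh1 (0.51 ± 0.32), Bckdk (0.32 ± 0.28) and Idh3a (0.32 ± 0.16). The 9 genes come from 3 arms. Branched-chain breakdown, which holds 13 of the 36 members, has 5 of them, lying on both sides of the median.

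Of the 630 ratios between 2 members, 43 (6.83%) had GFP+ and GFP− ranges that did not overlap, against 2.61% of the ratios between any 2 of the 10471 tested genes with a count in every library. Of the member ratios 197 (31.3%) moved the same way in 5 of 5 mice, against 16.9% of the ratios between any 2 genes. These shares are not a like comparison, since a ratio of 2 members cancels the movement that the members share across mice. The members' median log2 CPM (3.75 to 6.90 in a library) was also above that of all genes (2.53 to 2.80). Idh2 took part in 11 of the 43, Acat1 in 10 and Ppm1k in 9. The 5 ratios plotted here pair genes of one complex, reaction or route and were chosen after their values were seen, so they are given with no test. They are ratios of raw counts, not corrected for transcript length, so the change within a mouse can be read and the size of a ratio cannot.

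The ratio of Idh2 to Idh3a, the NADP and NAD forms of isocitrate dehydrogenase, was 1.77, 1.52, 2.58, 1.97 and 3.09 in GFP− and 0.492, 0.531, 1.34, 0.77 and 1.45 in GFP+ cells. It was lower in 5 of 5 mice, by a mean log2 change of −1.35 ± 0.36 (SD, n = 5), and every GFP+ value lay under every GFP− value. Between the pyruvate carrier subunits, Mpc1 to Mpc2 went from 0.618, 0.561, 0.401, 0.483 and 0.505 to 0.735, 0.661, 0.688, 0.75 and 0.892, higher in 5 of 5 mice (0.54 ± 0.28). The carrier ratio thus shifted one way in both series although Mpc1 itself moved in opposite directions.

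A pair of ratios describes the entry to branched-chain breakdown. Bcat2 to Bckdha, the aminotransferase against the committed dehydrogenase, was 1.06, 1.1, 0.944, 1.36 and 0.961 in GFP− and 2.44, 2.37, 2.27, 2.57 and 2.94 in GFP+ cells (1.22 ± 0.26). Bckdk to Ppm1k, the kinase against the phosphatase, was 0.576, 0.409, 0.704, 0.797 and 0.918 in GFP− and 1.21, 1.85, 1.04, 1.22 and 1.46 in GFP+ cells (1.02 ± 0.68). Both were higher in GFP+ cells of 5 of 5 mice with ranges apart. Among the ketone genes, Acat1 to Oxct1 went from 0.321, 0.416, 0.351, 0.293 and 0.462 to 0.251, 0.235, 0.239, 0.147 and 0.223, lower in 5 of 5 mice (−0.76 ± 0.30). Bdh1 to Acat1, the first against the last ketone step, was higher in 5 of 5 mice (1.29 ± 0.56), but its ranges overlapped.

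**Figure D5:**
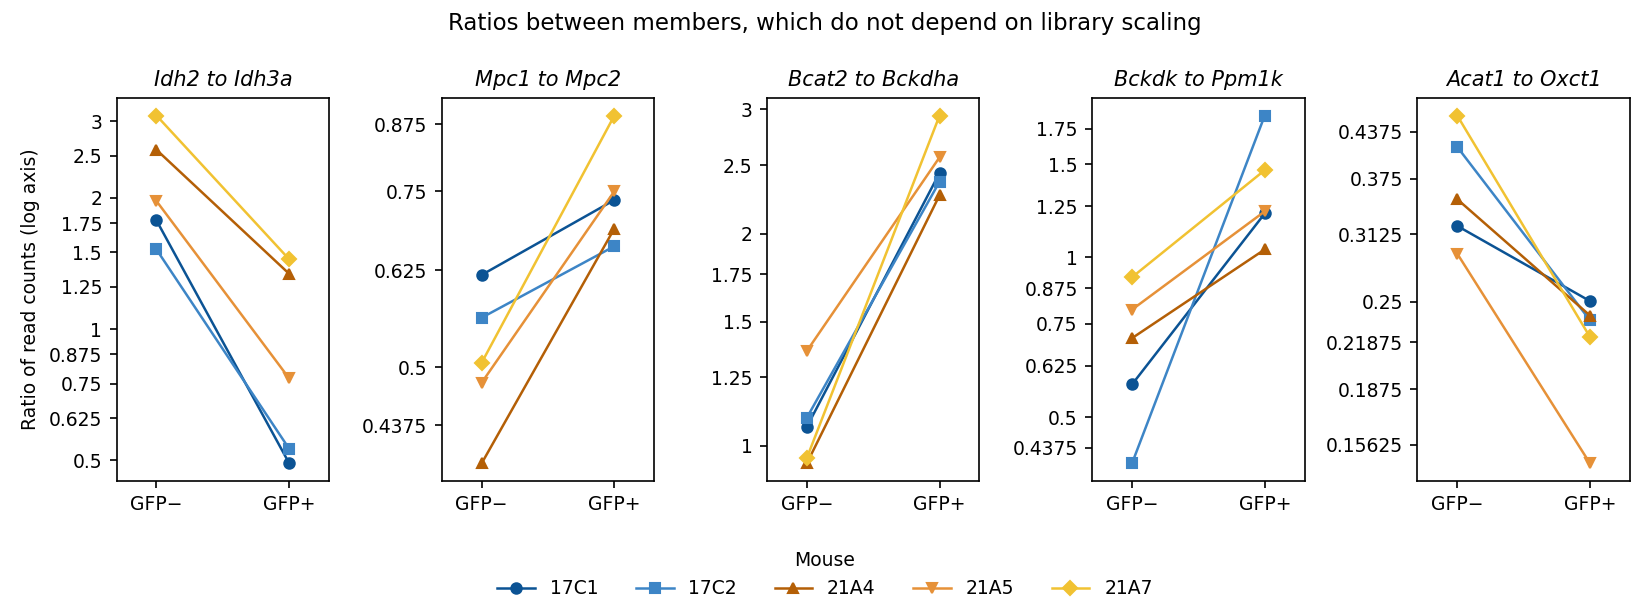
Ratio of read counts (log axis) between 2 members in the GFP− and GFP+ library of each mouse, for 5 ratios chosen after their values were seen. In each panel all 5 lines slope the same way and the GFP+ points do not overlap the GFP− points.

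Each arm's share of the members' summed counts was compared by a sign-flip test that could not call any arm. The smallest p that 5 pairs allow, 0.0625, lies above the threshold, so the lack of calls says nothing about the shares. Pyruvate entry took 13.3, 13.7, 13.2, 13.5 and 12.2% in GFP− and 19.3, 16.7, 13.5, 14 and 14.8% in GFP+ cells. The mean was 13.2% ± 0.579 against 15.6% ± 2.38 (SD, n = 5), higher in 5 of 5 mice, and the two-sided exact sign-flip test gave p = 0.0625, the smallest that 5 pairs allow (0.3125 adjusted over 5 arms). TCA cycle genes took 46.7% ± 1.07 in GFP− and 44.3% ± 1.46 in GFP+ cells, lower in 4 of 5 mice (exact p = 0.125, adjusted 0.3125). The shuttle (26.1% and 26.5%), branched-chain breakdown (6.34% and 6.18%) and ketone oxidation (7.67% and 7.34%) had exact p of 0.875, 0.6875 and 0.75.

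Of 56 related genes (regulators of pyruvate dehydrogenase, other TCA enzymes, further branched-chain genes, and ketone transport and synthesis), 55 were tested and 0 passed in the paired fit of edgeR. At an unadjusted p under 0.05 there were 6 (10.9%, against 15.3% of all genes), and the DESeq2 model called 2 (3.64%, against 7.31%), among them Pcx (pyruvate carboxylase, higher in 5 of 5 mice), named here after its values were seen. In the 17C mice 19 of 55 fell (34.5%, against 7.52% of all genes lower). In the 21A mice 1 of 56 fell (1.79%), and so did 0 of the 36 members, against 4.05% of all genes lower. Pdk4, a kinase that switches pyruvate dehydrogenase off, had 374, 257, 435, 88.5 and 48.6 CPM in GFP− and 61.3, 63.4, 236, 79.8 and 97.1 CPM in GFP+ cells. Pdk4 fell in the 17C mice (log2 fold change −2.30, edgeR adjusted p = 5.32e-06), with 0.0017 in the 21A mice and −0.94 ± 0.52 pooled (adjusted p = 0.445). Klf15, a transcription factor known to drive branched-chain breakdown genes in muscle, had 15.4, 20.2, 9.24, 6.46 and 0.795 CPM in GFP− and 2.28, 6.57, 5.23, 5.46 and 3.2 CPM in GFP+ cells. It fell in the 17C mice (−2.14, adjusted p = 0.00345), and its pooled value was −0.75 ± 0.62 (adjusted p = 0.624).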

How the data were processed

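RNA of GFP+ and GFP− heart muscle cells of 5 mice was sequenced, 1 library of each per mouse. Per the labels' protocols, RNA was purified on columns, amplified by SMARTer, and tagged by Nextera XT, which does not mark strand. Per the submitters' processing notes, fastp 0.23.1, STAR 2.7.9a, Subread 2.0.1, featureCounts and build GRCm39 were used. Gene annotation, strand setting and use of reads with several matches were not given in the sources used here, so genes overlapping others or with pseudogene copies are uncertain. The authors deposited raw read counts (whole numbers, 1 row per gene and 1 column per library). Without molecular identifiers, PCR copies are counted as reads. Of the library pairs, 0 had identical values.

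Groups and mouse identifiers came from the titles and cell type labels. The main test was the two-sided quasi-likelihood test of edgeR 4.0.16 under R 4.3.3 (scaling by TMM, filterByExpr, Benjamini-Hochberg adjustment over all genes tested, threshold 0.05) with the mouse as a block, since same-numbered libraries come from the same animal. Their deviations from group means correlated across genes with r of 0.292, 0.397, 0.161, 0.0741 and 0.637 (17C1, 17C2, 21A4, 21A5 and 21A7). Standard errors are the size of the log2 fold change over the square root of F. CPM used TMM-scaled library sizes, and log2 CPM a prior count of 2. Fits were tested on simulated data. Alternatives were DESeq2 1.42.0, limma 3.58.1 voom, other scalings, filters and covariates, each series alone and each mouse left out. Scaling to the 36 members, the score in the series difference, and every alternative within a series were chosen after seeing the data, as was the sarcomere scaling of the series difference. The members and gene lists were chosen with earlier results of these data known. Values per library are given for the 3 members of each arm with the smallest paired p, for the 3 with the smallest series-difference p, and for Pdk4 and Klf15 among related genes, with Acadsb and Bckdhb added after their values were seen. Sequences came from a RefSeq promoter table of GRCm38.p6 matched by symbol. Values of 1 related gene are not reported here.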

Additional observations from a re-analysis of the deposited data

Results flagged for a closer look

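Among groups of 5 libraries, 18 of 72 (36 members in each cell group) had 1 library that stood apart. Its gap to the nearest other exceeded Dixon's 95% critical value of 0.71 of the group's range. Chance gives about 1 in 20 for independent groups, but these groups share the same 10 libraries, so the 18 are not separate events. All 18 were libraries of mouse 21A7, and each was the lowest of its group. In its GFP+ library the log2 CPM was 6.56 for Pdha1, 4.65 for Pdhb, 5.12 for Dlat and 4.92 for Dld of pyruvate entry. The same library had 6.04 for Idh3a, 4.52 for Sucla2 and 4.75 for Fh1 of the TCA cycle, and 6.76 for Mdh1 and 5.69 for Got1 of the shuttle. Of the branched-chain genes it had 3.35 for Bckdk, 2.92 for Hibadh and 3.51 for Acadsb. In the GFP− library of 21A7 the log2 CPM was 1.85 for Bcat2, 3.28 for Ivd, 2.10 for Mccc1, 3.60 for Acadsb, 5.70 for Oxct1 and 0.998 for Bdh1. These libraries also had the highest (GFP+, 91.2%) and lowest (GFP−, 9.2%) mitochondrially encoded share of all 10, and the part of that share in the low levels was not tested.

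The GFP contrast differed between the series for 10 members by the test of the difference itself (21A minus 17C, log2 scale, edgeR adjusted p in parentheses). The difference was 2.02 for Mpc1 (0.0251), 1.53 for Mpc2 (0.0419), 1.86 for Idh2 (0.0349), 1.56 for Idh3g (0.0303) and 2.09 for Ogdh (0.0313). It was 1.69 for Mdh1 (0.0364), 1.70 for Mdh2 (0.039), 2.04 for Got2 (0.03), 1.87 for Ppm1k (0.0237) and 1.54 for Bdh1 (0.0383).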

How the results depend on the processing

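The paired count of 0 members called became 2 with DESeq2, 1 with voom, 1 with no filter on low counts, 17 in the 17C mice alone and 2 in the 21A mice alone. It stayed at 0 with no replicate block, where the members' median relative to all genes was −0.25 in place of −0.10. The count of 17 in the 17C mice was 14 with no replicate block, 9 on library totals and 3 (2 lower, 1 higher) scaled to the sarcomere genes. The count of 2 in the 21A mice, both higher, was 0 with no replicate block or on library totals, 5 with DESeq2, all higher, 5 other genes scaled to the sarcomere genes, all lower, and 0 to 2 with a mouse left out. The series difference called 10 members, 19 with DESeq2 or with no filter, 0 on library totals or with the non-myocyte score, 2 scaled to the sarcomere genes (lower in 21A, where the 10 were higher), and 0 to 6 with a mouse left out.

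Signs of single genes changed as follows on the log2 scale. In the 21A mice alone Pdhb was 0.20, Idh3g 0.29, Cs 0.28, Got2 0.42, Mdh2 0.41, Got1 0.53 and Oxct1 0.29. In the 17C mice alone Mpc1 was −0.82, Pdha1 −0.31 and Bdh1 −0.50. On library totals, which moved the median of all genes to −1.15, Mpc1 was −0.76, Pdha1 −0.92 and Bdh1 −0.71. With the score Mpc1 was −0.32, Pdha1 −0.050 and Bdh1 −0.34. With no replicate block Mpc1 was −0.23. Pdha1 was −0.019 scaled to the sarcomere genes, Got1 was 0.043 with voom and 0.16 scaled to the members, and Oxct1 0.045 scaled to the members. With a mouse left out, Pdha1 ranged from −0.014 to 0.35, Cs from −0.53 to 0.0053, Got2 from −0.72 to 0.021, Mdh2 from −0.51 to 0.080, Got1 from −0.25 to 0.22 and Oxct1 from −0.34 to 0.072.

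Of the arm shares (mean log2 change), the shuttle went from 0.026 to −0.010 by mean log2 ratios, to −0.10 in the 17C mice and to between −0.013 and 0.077 with a mouse left out. Branched-chain breakdown went from −0.024 to 0.21 in the 17C mice and to between −0.089 and 0.040, and ketone oxidation from −0.040 to 0.22 in the 17C mice and to between −0.12 and 0.012, with a mouse left out. Pyruvate entry and the TCA cycle kept their sign in every alternative. The cause of these changes was not tested.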
